A study of Mus musculus with 27 samples.

Results

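The untreated cultures of 2 experiments on mixed glia make up 6 of the 27 RNA sequencing libraries of the series, 3 in experiment 1 and 3 in experiment 2. They were chosen by their titles, which mark them as not treated and give the experiment and a replicate number. Mixed glia are primary cultures that hold the dividing non-neuronal cells of the brain. These were grown from the cortex of newborn C57BL6 mice for 14 days in vitro, so both untreated groups share strain, tissue, culture time and the absence of any added agent. LPS (lipopolysaccharide, a bacterial wall component) and the cytokines IFNγ and IL-4 activate glia, and bryostatin acts on protein kinase C. In experiment 1 the 12 treated libraries received LPS (100 ng/mL) alone, with bryostatin (50 nM), with IFNγ (20 ng/mL) or with both for 24 h. In experiment 2 the 9 treated libraries received bryostatin (50 nM), IL-4 (20 ng/mL) or both. No treatment other than none was given in both experiments. The labels do not say whether replicates came from separate cultures or animals, so each p-value rests on how far these libraries differ from each other, and that may be technical variation.

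Glia of newborn cortex grow as a bed of astrocytes, on which microglia and cells of the oligodendrocyte lineage sit. Oligodendrocyte precursors carry the receptor PDGFRα and the transcription factor SOX10, and they divide in answer to PDGF from astrocytes before they make myelin. Ependymal cells line the brain ventricles and bear motile cilia, whose genes are switched on by FOXJ1, MCIDAS and factors of the RFX family, and the choroid plexus beside them secretes cerebrospinal fluid and makes transthyretin. Meningeal fibroblasts, border macrophages and vessel cells come along with the dissected cortex in differing amounts.

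In each list of values, replicates 1, 2 and 3 follow in this order. Total counts of the untreated libraries ran from 17323706 to 18525681, so depth hardly differed between them. At this depth 3 counts, the limit that a count of 0 allows, equal 0.162 to 0.173 CPM (counts of a gene relative to the library's total) before TMM factors. The CPM of genes and lists below are scaled with TMM factors. Each library had a count for 20543 to 21623 genes, and mitochondrial genes took 1.53%, 1.21% and 1.35% of the counts in experiment 1 and 1.16%, 1.47% and 1.47% in experiment 2. The 3 higher shares belong to experiment 1 replicate 1 and experiment 2 replicates 2 and 3. Without both libraries labelled replicate 1, 3 of 13 mitochondrial genes were called higher in experiment 2 and 0 lower (median log2 difference 0.52). Over all genes tested in that comparison, which is described below, 7.02% were called higher and 11.7% lower. The part of these mitochondrial differences in the results below was not tested.

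Libraries with the same label were not always the most alike. Over 11679 genes of sufficient level (5 CPM or more on average), the library labelled experiment 1 replicate 1 differed over 2-fold from replicates 2 and 3 of its own group in 6.17% and 5.76% of genes. It differed from replicates 2 and 3 of experiment 2 in 0.0514% and 0.00856% of genes, which is 6 genes and 1 gene. Its nearest neighbours carried the other experiment's label. Replicates 2 and 3 of experiment 1 had 0% of genes over 2-fold apart, and those of experiment 2 had 0.146%. The library labelled experiment 2 replicate 1 stood apart from all others, least from experiment 1 replicate 2 (1.79%) and replicate 3 (4.89%). It differed more from replicates 2 and 3 of its own label (8.95% and 12.2%) and from experiment 1 replicate 1 (12%). Between replicates 2 and 3 of the experiments, all 4 pairs lay close together, at 5.58% and 5.64% for experiment 1 replicate 2 and at 5.53% and 5.27% for replicate 3. No pair of libraries agreed within counting error: the chi-square per gene was at least 5.06, its value for experiment 1 replicate 1 against experiment 2 replicate 3. The labels are kept as given below, and each comparison is also given without both libraries labelled replicate 1.

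**Figure D1:**
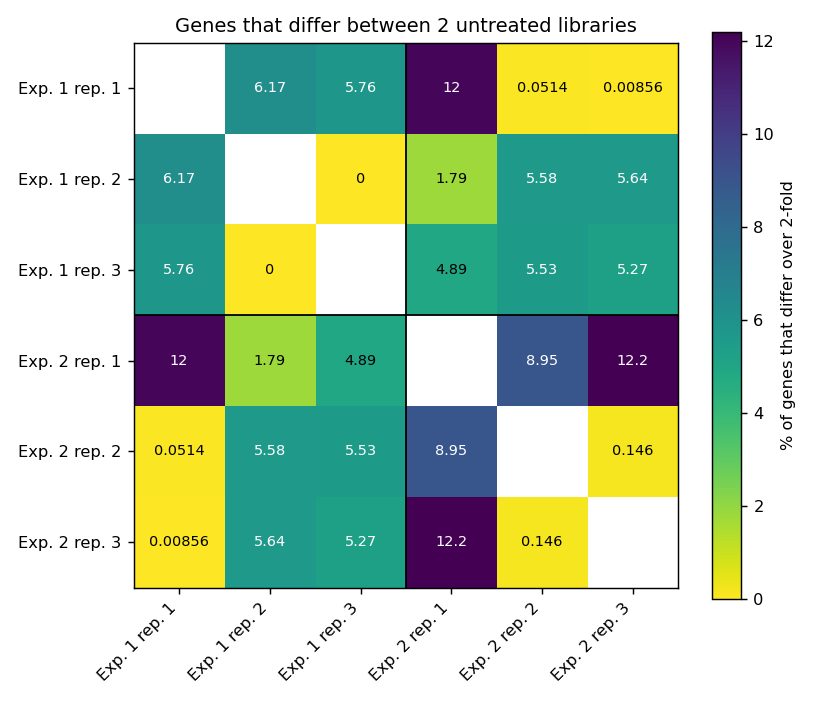
Share of 11679 genes that differ over 2-fold between each 2 of the 6 untreated libraries, in percent (colour and number), with lines between the experiments as labelled. Experiment 1 replicate 1 has its lowest shares with experiment 2 replicates 2 and 3, and experiment 2 replicate 1 has its highest with experiment 2 replicate 3 (12.2%).

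The baseline transcriptome was that of astrocyte-rich glia in all 6 libraries. On the scale of the authors' FPKM, which corrects for gene length, the nuclear genes with the highest medians over the 6 libraries, named after their values were seen, included Apoe, the lipid carrier of astrocytes and microglia, at 3190 (range 2010 to 6610), and Gfap, the astrocyte intermediate filament, at 2270 (1920 to 2820). Igfbp2, a secreted binding protein of insulin-like growth factors, had 1810 FPKM (977 to 2340), and Lyz2, the lysozyme of macrophages and microglia, had 1320 (1040 to 1460). Olig1 and Olig2, transcription factors of the oligodendrocyte lineage that cultured astrocytes can also express, had medians of 197 and 39.5 FPKM. The microglial receptors Csf1r and Cx3cr1 had 75.2 and 41.2 FPKM. Rbfox3, which marks mature neurons, had 0.0374 FPKM, with no more than 0.102 in any library. Of the genes of blood cells, 8 of 12 had no count in any untreated library, and the tight junction gene Cldn5 of brain endothelium had none in any.

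Genes that mark other brain regions than the labelled cortex were low in every library. Of 22 midbrain and hindbrain genes, among them Hox genes, 11 had no count in any untreated library and 20 had a mean under 1 CPM. Summed over that list, the libraries held 4.63 to 6.09 CPM. None of the 6 libraries stands apart in that sum.

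Several marker genes of astrocytes and microglia, and the summed cell cycle list, were alike in the groups as labelled. Gfap ran at 8151, 10416 and 9734 CPM in experiment 1 and at 11968, 9562 and 8294 CPM in experiment 2, so the groups overlap (log2 difference of experiment 2 minus experiment 1 0.08 ± 0.13 SE, adjusted p = 0.836 in edgeR). Cx3cr1 stood at 168, 187 and 207 CPM against 181, 187 and 206 CPM. Olig2 stood at 98.1, 103 and 95.2 CPM against 109, 98.1 and 104 CPM. In neither gene does a library stand apart, and the groups overlap. Cspg4, the NG2 proteoglycan of precursors and pericytes, also stayed within 19.7 to 30.1 CPM. The cell cycle list, 35 genes, summed to 942 to 1062 CPM over the 6 libraries. Mki67, a marker of dividing cells, ran at 49.7, 29.1 and 34.5 CPM against 20.4, 48 and 44.2 CPM, with the 2 lowest values in experiment 2 replicate 1 and experiment 1 replicate 2. Without both libraries labelled replicate 1, Mki67 differed by 0.54 (adjusted p = 0.184 in edgeR). With only the 4 untreated libraries edgeR called it (adjusted p = 0.00179). Of the 35 cell cycle genes, 5 were then called higher in experiment 2, 0 lower and 30 not, beside 7.02% higher and 11.7% lower over all genes tested.

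**Figure D2:**
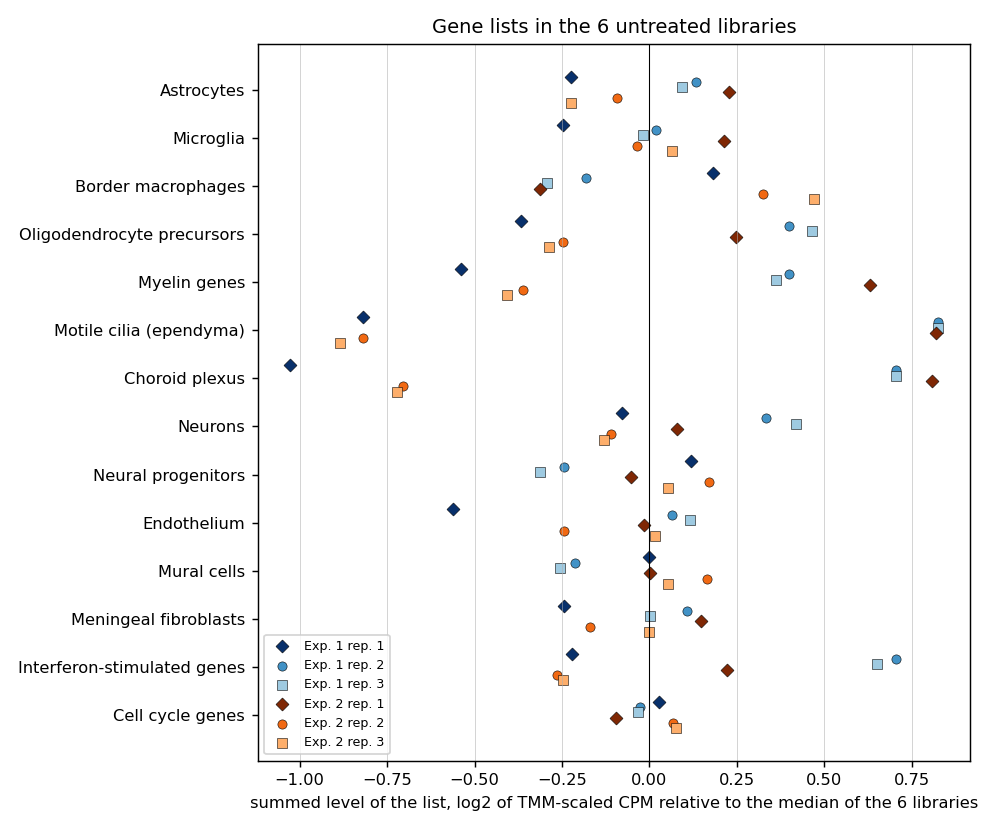
Summed level of 14 gene lists in each untreated library, as log2 of TMM-scaled CPM relative to the median of the 6 libraries (horizontal axis). Motile cilia and choroid plexus lists split the libraries most, with experiment 1 replicates 2 and 3 and experiment 2 replicate 1 on the high side. The cell cycle list splits them least.

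Compared as labelled, 3 libraries against 3, no gene was called. edgeR's quasi-likelihood test gave 0 genes (0% of 16647 tested) at a Benjamini-Hochberg adjusted p under 0.05, with 1573 at an unadjusted p under 0.05, and DESeq2 gave 0 and 1653. Ranges of the groups did not overlap for 1634 genes (9.82% of those tested), 901 higher and 733 lower in experiment 2. The genes with the smallest unadjusted p were not called. Saysd1 had 7.94, 8.8 and 7.9 CPM in experiment 1 and 13.5, 12.7 and 11.9 CPM in experiment 2 (log2 difference 0.63 ± 0.15, adjusted p = 0.454 in edgeR). Gsto1, a glutathione transferase, had 27.6, 23.3 and 23.5 CPM against 34.1, 34.1 and 33.9 CPM (0.46 ± 0.11, adjusted p = 0.454 in edgeR). In both genes all libraries of experiment 2, replicate 1 included, lay above all of experiment 1.

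Sox5, a transcription factor of the SoxD family, had 8.38, 16.2 and 19.6 CPM against 7.94, 7.67 and 6.6 CPM (-0.99 ± 0.23, adjusted p = 0.454 in edgeR). Here experiment 1 replicate 1 lay next to the experiment 2 libraries, though still above them. Lrriq1 (-1.48 ± 0.35) had the same order. The interferon-stimulated gene Ifit1 (-1.36 ± 0.32) overlapped, at 6.78, 30.2 and 26.4 CPM against 12, 6.31 and 6.43 CPM. Mmp3, a matrix protease, had 4.63, 3.75 and 4.93 CPM against 8.39, 6.15 and 8.31 CPM (0.78 ± 0.19, adjusted p = 0.454 in edgeR). In the microglia list 6 of 25 genes were higher in experiment 2 with no overlap and 0 were lower. Over all 16647 genes tested, 901 were higher and 733 lower with no overlap. The 6 genes were Aif1, Cd68, Fcer1g, Laptm5, Olfml3 and Spi1, named after their values were seen. Cd68, a lysosomal protein of phagocytes, had 53.2, 59.9 and 57.6 CPM against 62.4, 69.5 and 64 CPM, and none of the 6 was called. The library labelled experiment 2 replicate 1 ran high for short genes, as described below, and the part of gene length here was not tested.

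Without both libraries labelled replicate 1, the untreated groups differed in 3165 of 16944 genes (18.7%) by edgeR at an adjusted p under 0.05. Of these, 1190 were higher (7.02%) and 1975 lower (11.7%) in experiment 2. Both libraries were left out because of their values, so this 2 against 2 comparison describes the other 4 libraries and is no independent test, and the values of the libraries left out are given beside it. Leaving out 1 library at a time, the comparison as labelled gave 784 genes without experiment 1 replicate 1, 691 without experiment 2 replicate 1 and 0 without any of the other 4. Among the called genes those of oligodendrocyte precursors, motile cilia and interferon response were mostly lower in experiment 2, 12 of 24 genes of the sterol list were higher, and progenitor genes were divided, with 3 higher and 6 lower.

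In the oligodendrocyte precursor list 12 of 17 tested genes were lower in experiment 2, 1 was higher and 4 were not called (median log2 difference -2.29, against 0 for all genes tested). Summed, the list stood at 750, 1276 and 1335 CPM in experiment 1 and at 1148, 815 and 793 CPM in experiment 2. Sox10 differed by -7.04 ± 0.34 (log2), and its counts in experiment 1 were 3, 677 and 631, against 740, 5 and 4 in experiment 2. In the library labelled experiment 1 replicate 1 its 3 counts are at the limit that a count of 0 allows. Myt1, a zinc finger factor of the lineage, had 1, 155 and 125 counts against 94, 1 and 0, which gives replicates 2 and 3 a ratio of 276 (95% interval 49.1 to 10900, for counting error only). Gjc3, a gap junction protein of oligodendrocytes, had 0, 115 and 194 counts against 140, 1 and 2, a ratio of 102 (34.4 to 495). Both genes were at or near 0 in experiment 1 replicate 1 and well above it in experiment 2 replicate 1.

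Other precursor genes had the same order with a higher floor. Cacng4, an AMPA receptor subunit partner, had 6.72, 76.8 and 68.1 CPM against 77.4, 7.61 and 6.1 CPM (-3.40 ± 0.19). Lhfpl3, a tetraspan protein enriched in precursors, had 1.71, 55.7 and 59.2 CPM against 46.7, 2.23 and 2.94 CPM (-4.47 ± 0.29). Bcas1, which marks early myelinating cells, had 0.0551, 15.1 and 13.4 CPM against 16.9, 0.109 and 0.388 CPM (-5.81 ± 0.42). In each the groups overlap as labelled, because the libraries labelled replicate 1 lie at the other group's level. In bulk RNA, fewer cells of a type and less RNA per cell cannot be told apart. Not all genes used to mark the lineage took part: Olig1 (0.27 ± 0.11), Olig2 (0.02 ± 0.10) and Cspg4 (-0.24 ± 0.20) were not called, though Olig1 was called higher in experiment 2 by edgeR with only the 4 untreated libraries (adjusted p = 0.0164).

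Genes of myelin were low throughout, and 9 of 13 tested were lower in experiment 2, with 4 not called (median -1.05). Ugt8a, which makes the myelin lipid galactosylceramide, had 0.0551, 15.7 and 16.6 CPM against 10.6, 0.218 and 0.222 CPM (-6.16 ± 0.52). Mbp, myelin basic protein, had 7.5, 16 and 19.2 CPM against 17, 6.09 and 7.04 CPM (-1.42 ± 0.17), so its low libraries kept more of its level than those of Ugt8a. Late myelin genes were near the limit of detection: Mog had no more than 0.156 CPM and Opalin no more than 0.348 CPM in any untreated library.

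**Figure D3:**
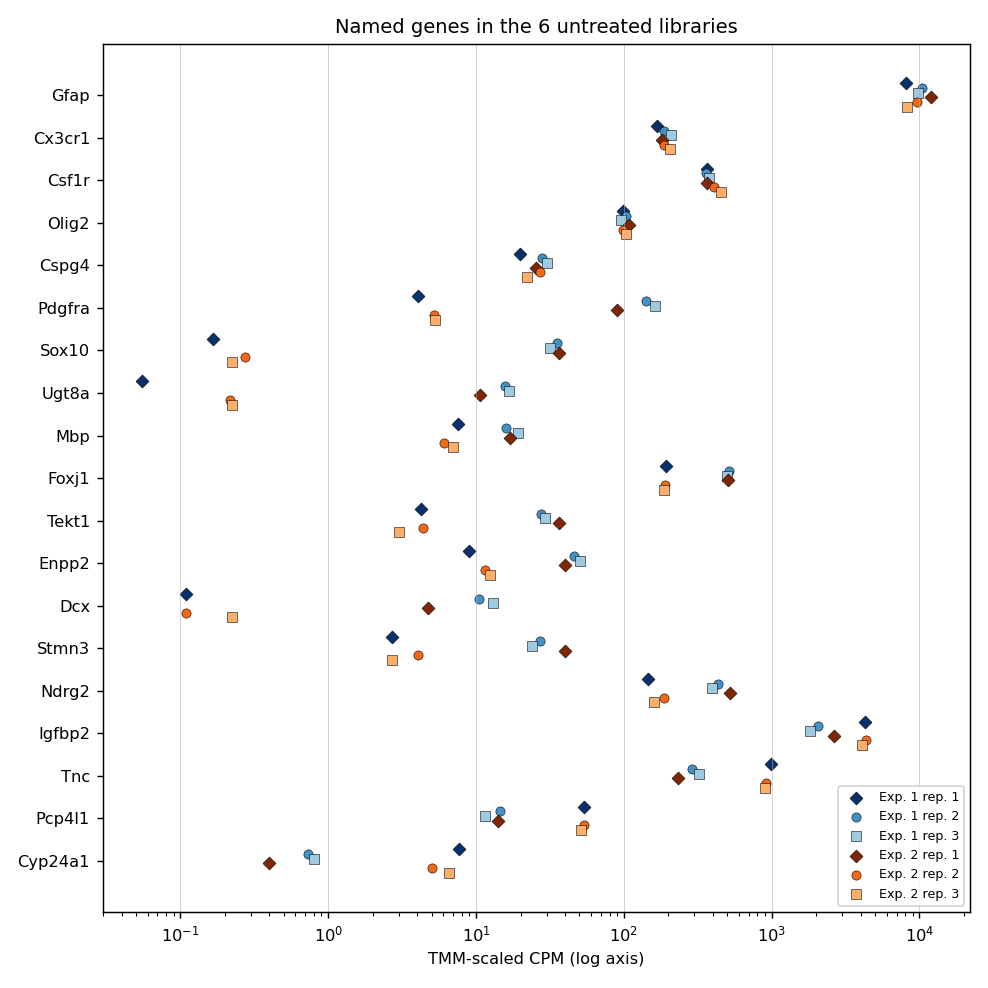
Level of 19 genes in each untreated library, as TMM-scaled CPM on a log axis. Sox10, Ugt8a and Dcx lie at or under 0.272 CPM in experiment 1 replicate 1 and experiment 2 replicates 2 and 3, Olig2 and Cx3cr1 lie close together in all 6 libraries, and Igfbp2, Tnc, Pcp4l1 and Cyp24a1 have the opposite order.

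All 20 genes of the motile cilia list were tested, and all 20 were lower in experiment 2 (median -2.23). Summed, they stood at 342, 1069 and 1068 CPM in experiment 1 and at 1065, 342 and 327 CPM in experiment 2. The sums thus fall at 2 levels, each shared by 3 libraries that carry both labels. Foxj1, the master factor of motile cilia, had 194, 512 and 495 CPM against 508, 191 and 187 CPM (-1.41 ± 0.13). Tekt1, a filament protein of the ciliary microtubules, had 4.24, 27.6 and 29.3 CPM against 36.6, 4.41 and 2.99 CPM (-2.94 ± 0.29). Ccdc153, a ciliary coiled-coil protein, had 1.49, 34.4 and 28.3 CPM against 44.9, 3.05 and 1.05 CPM (-3.92 ± 0.37). The fold was smaller in Foxj1 than in Tekt1 and Ccdc153, and the difference between the folds was not tested.

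Promoters of the list were searched for the core motif of RFX factors, since its genes moved together. Of the 20 genes, 17 matched the RefSeq promoter table (GRCm38.p6, 250 bases before to 50 after each start site), and 8 of these (47.1%) held GTTGCC on either strand in a promoter. By promoter, 8 of 21 (38.1%) held it, against 12.5% of all 32851 promoters of the same length, and a match is a description and not a site of binding. Stretches upstream of the start sites of 3 genes, chosen after their values were seen, show where the letters lie, with each match on either strand in capitals. They lie at chr2:21205366-21205459 (minus strand), chr8:110266904-110266976 (plus strand) and chr9:44240465-44240590 (plus strand), before the first exon of the gene in the deposited annotation.
Enkur: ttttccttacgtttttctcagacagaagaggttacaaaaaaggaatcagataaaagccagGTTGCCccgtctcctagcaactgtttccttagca
Hydin: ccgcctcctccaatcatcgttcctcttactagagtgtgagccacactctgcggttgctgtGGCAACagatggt
Ccdc153: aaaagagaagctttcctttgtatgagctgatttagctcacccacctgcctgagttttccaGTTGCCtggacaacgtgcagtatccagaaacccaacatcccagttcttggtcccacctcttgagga
The first match starts 34 bases before the RefSeq start site in Enkur, 13 in Hydin and 152 in Ccdc153. Enkur, a calcium channel partner found in motile cilia, had 15.6, 46.4 and 46.8 CPM against 50.8, 17 and 13.9 CPM (-1.59 ± 0.16). Hydin, a protein of the central pair of cilia, had 1.21, 5.57 and 6.69 CPM against 2.04, 0.598 and 1.16 CPM (-2.79 ± 0.51).

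Against experiment 1 replicates 2 and 3, the library labelled experiment 2 replicate 1 was above both in 9 of the 20 cilia genes, of 556 to 2782 bases, and below both in 8, of 3650 to 18037 bases. Hydin, with a deposited length of 18037 bases, reached 2.04 CPM there against 5.57 and 6.69 CPM. The outer arm dynein heavy chain Dnah5 (15637 bases), named after its values were seen, had 13.1 CPM against 21 and 28.7 CPM. The short gene Dynlrb2 (556 bases), a dynein light chain named likewise, had 45 CPM against 31.2 and 31.7 CPM.

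Choroid plexus genes were few but ran in the same order, as 5 of 8 tested were lower in experiment 2, 0 were higher and 3 were not called. Ttr, which encodes transthyretin, had 0, 148 and 149 counts against 273, 1 and 0, a ratio of 293 (counting interval 52.1 to 11600) between replicates 2 and 3 of the experiments. Enpp2, which makes lysophosphatidic acid, had 8.98, 46.3 and 50.3 CPM against 40.3, 11.5 and 12.5 CPM (-2.01 ± 0.17). Kcnj13, a potassium channel of that epithelium, was under 0.7 CPM in all 6 libraries.

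Neuronal genes were low, and 10 of 17 tested were lower in experiment 2, 1 was higher and 6 were not called. Over all genes tested, 11.7% were lower and 7.02% higher. Dcx, of migrating young neurons, had 0.11, 10.4 and 13 CPM against 4.77, 0.109 and 0.222 CPM (-6.09 ± 0.55). Elavl4, a neuronal RNA-binding protein, had 0.386, 7.6 and 8.65 CPM against 4.72, 0.435 and 0.277 CPM (-4.48 ± 0.34). Stmn3, a neuronal microtubule regulator, had 2.7, 27 and 23.8 CPM against 39.9, 4.08 and 2.72 CPM (-2.90 ± 0.22). Stmn2, of the same family, was the gene that was higher, at 149, 104 and 96.6 CPM against 115, 151 and 139 CPM (0.54 ± 0.12). Transporters of mature neurons gave little: Slc17a6 and Slc32a1 had no count in any untreated library. Of the interneuron factors, Dlx2 lay between 4.78 and 6.43 CPM in all 6 and Lhx6 between 1.96 and 3.28 CPM. In their list 0 of the 6 tested genes were called, beside 18.7% of all genes tested. With so few genes, and 6 of the 10 listed under 1 CPM on average, that count does not set the list apart.

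Genes outside the lists, named for their large folds, ran in the same order. Kcnj6, a potassium channel, had 0, 100 and 99 counts against 58, 0 and 0, so in replicates 2 and 3 it was at least 65.4-fold lower in experiment 2 (3 counts over both libraries). Dpp10, a partner of potassium channels, had 1, 106 and 115 counts against 72, 1 and 0, a ratio of 218 (38.7 to 8640). Lrrtm3, a synaptic adhesion protein, had 0, 124 and 107 counts against 75, 2 and 0, a ratio of 114 (31.2 to 945), and Stk32b, a kinase, had a ratio of 149 (50.6 to 724). In each of the 4 genes the library labelled experiment 1 replicate 1 had at most 1 count and experiment 2 replicate 1 had 58 or more.

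Astrocyte genes differed less, though 15 of 25 tested were lower in experiment 2, 0 were higher and 10 were not called (median -0.33). Summed, they ran at 19507, 24982 and 24315 CPM in experiment 1 and at 26693, 21343 and 19505 CPM in experiment 2. Gja1, the astrocyte gap junction protein, had 339, 619 and 635 CPM against 524, 343 and 370 CPM (-0.81 ± 0.11). Ntsr2, a neurotensin receptor of astrocytes, had 6.83, 29.4 and 23.1 CPM against 34.2, 8.43 and 7.2 CPM (-1.75 ± 0.29). Slc6a11, a GABA transporter, had 2.92, 18.1 and 17.5 CPM against 12.1, 2.77 and 4.27 CPM (-2.34 ± 0.33). Slc1a2, the main glutamate transporter of mature astrocytes, had 172, 284 and 349 CPM against 210, 146 and 180 CPM (-0.96 ± 0.20). Glul (-0.03 ± 0.09) and Aldh1l1 (0.08 ± 0.13), glutamine synthetase and a folate enzyme, were not called.

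Progenitor genes split by gene: of 15 tested, 3 were higher in experiment 2, 6 lower and 6 not called. Over all genes tested, 7.02% were higher and 11.7% lower. Tnc, a matrix protein of reactive and immature astrocytes, had 995, 287 and 324 CPM against 234, 919 and 905 CPM (1.58 ± 0.14). Nes, the filament nestin, had 707, 422 and 457 CPM against 495, 689 and 662 CPM (0.62 ± 0.10). Lower were Hopx (-1.27 ± 0.19), a cofactor of quiescent progenitors, and Prom1 (-0.75 ± 0.09), the membrane protein prominin, and Hes5, a Notch target, at 0.22, 1.77 and 1.56 CPM against 2.48, 0.272 and 0 CPM (-3.54 ± 0.75).

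The largest folds towards experiment 2 had the opposite order of libraries from precursor and cilia genes. Cyp24a1, the enzyme that breaks down active vitamin D, had 7.72, 0.729 and 0.805 CPM against 0.397, 5.06 and 6.54 CPM (2.91 ± 0.43). Pcp4l1 had 53.4, 14.5 and 11.5 CPM against 14, 53.9 and 51 CPM (2.02 ± 0.21). Kcnf1, a modifier of potassium channels, had 22.4, 5.52 and 5.83 CPM against 5.11, 21.8 and 23.3 CPM (1.99 ± 0.23). Ajap1 (2.71 ± 0.45), Sox7 (2.39 ± 0.41), Defb1 (1.98 ± 0.23) and Arhgef37 (1.95 ± 0.30) followed this order too. Serpinb2, a protease inhibitor (2.77 ± 0.58), differed within experiment 1, at 1.6, 0.104 and 1.46 CPM against 1.09, 3.64 and 7.2 CPM.

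Among abundant secreted and lipid genes, Igfbp2 had 4277, 2044 and 1823 CPM against 2640, 4345 and 4075 CPM (1.12 ± 0.13). Apoe ran the other way, with 4330, 9583 and 8485 CPM against 14197, 5273 and 5017 CPM (-0.81 ± 0.21), so the library labelled experiment 2 replicate 1 was the highest of the 6. Of the sterol list 12 of 24 genes were higher in experiment 2, 0 were lower and 12 were not called (median 0.34). Insig1, a sensor that holds sterol synthesis in check, had 157, 55.1 and 60.4 CPM against 55.8, 156 and 161 CPM (1.46 ± 0.09). The fold of Msmo1, an enzyme of the pathway, was 0.58 ± 0.09, and the libraries of highest Insig1 again carried both labels.

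Of the growth factors that act on precursors, 4 of 21 tested were higher in experiment 2, 4 lower and 13 not called. The shares over all genes tested were 7.02% higher and 11.7% lower. Fgf1, a fibroblast growth factor, had 236, 88.3 and 87.4 CPM against 73.4, 205 and 213 CPM (1.25 ± 0.19). Pdgfa, the ligand of PDGFRα, had 54.4, 37.8 and 37.8 CPM against 41.9, 55.1 and 55.3 CPM (0.55 ± 0.12), and was thus higher where its receptor's counts were low. Lif, a cytokine of the IL-6 family, had 8.32, 3.9 and 4.12 CPM against 3.33, 9.25 and 10.1 CPM (1.27 ± 0.17). Bmp7, a bone morphogenetic protein, had 2.81, 12.2 and 12.2 CPM against 12.1, 3.15 and 3.1 CPM (-1.96 ± 0.23).

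Interferon-stimulated genes were lower in experiment 2 for 21 of 25 tested, with 0 higher and 4 not called (median -1.22). Summed, they stood at 397, 754 and 726 CPM in experiment 1 and at 539, 385 and 390 CPM in experiment 2, and in the treated libraries of experiment 1 at 12022 to 23500 CPM. Isg15, a ubiquitin-like protein, had 6.39, 25.6 and 19.8 CPM against 16.3, 5.6 and 5.49 CPM (-2.03 ± 0.18). Oasl2, of the oligoadenylate synthetase family, had 8.76, 41.5 and 41.6 CPM against 20, 7.67 and 9.75 CPM (-2.25 ± 0.15). Ifi44, an antiviral protein, had 1.71, 12 and 12.2 CPM against 4.27, 1.96 and 1.61 CPM (-2.76 ± 0.27). For these 3 genes the library labelled experiment 2 replicate 1 lay between the levels of the others.

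Of 24 inflammatory genes 6 were lower in experiment 2, 0 were higher and 18 were not called (median -0.33), beside 11.7% lower and 7.02% higher over all genes tested. Saa3, an acute phase protein, had 4.02, 7.44 and 12.6 CPM against 20, 2.23 and 3.49 CPM (-1.81 ± 0.33), and the chemokine Cxcl10 had 4.24, 12.3 and 16.3 CPM against 10.1, 4.57 and 4.71 CPM (-1.63 ± 0.25). Il6 stayed at or under 0.333 CPM and Nos2 at or under 0.104 CPM in all 6 untreated libraries. Antigen presentation genes gave 0 called of 13. Lcn2, an iron-binding acute phase protein, had 17.3, 23.7 and 23.6 CPM against 50.1, 23.3 and 23.1 CPM, so 1 library, experiment 2 replicate 1, was high.

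Genes of the microglia list hardly took part in these differences: 1 of 25 was higher in experiment 2, 0 were lower and 24 were not called (median 0.02). Their sum was 2912, 3503 and 3411 CPM in experiment 1 and 4005, 3374 and 3614 CPM in experiment 2, with the lowest and the highest value in the libraries labelled replicate 1. Olfml3, a secreted microglial protein, was the gene called (0.36 ± 0.11). C1qa, a complement chain, had 302, 397 and 383 CPM against 604, 345 and 365 CPM (-0.13 ± 0.23). Tmem119, a resting microglia marker, had 39.1, 61.8 and 58.6 CPM against 69.5, 51.8 and 58 CPM (-0.13 ± 0.21). A separate list, of disease-associated microglia, did differ: of 15 genes 5 were higher, 3 lower and 7 not called (median 0.29). Summed, that list stood at 8754, 13969 and 12563 CPM in experiment 1 and at 19307, 10188 and 9854 CPM in experiment 2. Border macrophage genes were higher for 3 of 10 tested and lower for 0, beside 7.02% higher and 11.7% lower over all genes tested. The scavenger receptor Stab1, the one of the 3 with the most counts, stood at 226, 152 and 145 CPM against 130, 251 and 265 CPM (0.80 ± 0.15).

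Of the vessel and meninges lists, 2 of 10 endothelial genes were higher and 2 lower, and 1 of 9 mural genes was lower, beside 7.02% higher and 11.7% lower over all genes tested. Vwf, the von Willebrand factor of endothelium, had 0.717, 13.8 and 16.6 CPM against 14.8, 1.31 and 1.05 CPM (-3.68 ± 0.31), while Cdh5, of endothelial junctions, had 15.4, 20.1 and 19.5 CPM against 21.2, 18.7 and 25.9 CPM and was not called. Of 19 meningeal fibroblast genes 3 were lower in experiment 2, 2 higher and 14 not called, and these shares and the mural one lie near those of all genes. The median log2 difference of the fibroblast list was lower, at -0.67 against 0 for all genes tested. Dcn, the matrix proteoglycan decorin, had 19.5, 107 and 101 CPM against 119, 13.2 and 29.7 CPM (-2.28 ± 0.41), and Islr, a stromal protein, had 368, 206 and 192 CPM against 227, 364 and 314 CPM (0.77 ± 0.12). Col1a1, the main collagen chain, had 451, 1120 and 981 CPM against 1287, 596 and 637 CPM (-0.77 ± 0.41) and was not called, but edgeR called it with only the 4 untreated libraries (adjusted p = 2.4e-06) and with no filter on low counts (adjusted p = 2.11e-10).

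The other libraries were placed on the 3165 genes of the 2 against 2 comparison. For each gene a library was counted as nearer to the mean of replicates 2 and 3 of one experiment or of the other, on the scale of log2(CPM + 0.5). The library labelled experiment 1 replicate 1 was nearer to experiment 2 in 3034 genes (95.9%), and the library labelled experiment 2 replicate 1 in 553 genes (17.5%). Both were left out for their likeness to the other experiment, so their places follow from that choice and support nothing. The treated libraries of experiment 2 were nearer to experiment 2 in 86.3% to 94.6% of these genes. The treated libraries of experiment 1 were split, at 42.2% to 59.6%, and all of them had received LPS. Bryostatin was given in both experiments, but in experiment 1 only together with LPS. LPS, IFNγ and IL-4 were each given in 1 experiment only, so for treated libraries their effects and the experiment cannot be told apart.

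Several named genes kept the division of the experiments through every treatment, but the summed precursor and motile cilia lists overlapped. In treated libraries the precursor list ran from 378 to 954 CPM in experiment 1 and 752 to 915 CPM in experiment 2. The motile cilia list ran from 311 to 599 CPM against 202 to 384 CPM. The choroid plexus list did not overlap, at 73 to 189 CPM against 22.9 to 41.2 CPM. Sox10 ran from 7.3 to 35.5 CPM (median 13.2) in the 12 treated libraries of experiment 1 and from 0.0338 to 0.469 CPM (median 0.105) in the 9 of experiment 2. Stmn3 ran from 18 to 27.5 CPM against 2.11 to 3.77 CPM, and Igfbp2 from 1390 to 2220 CPM against 3810 to 4740 CPM, with no overlap in either gene. Tekt1 ran from 5.4 to 17.1 CPM against 1.41 to 5.09 CPM. Tnc did not keep the division, at 472 to 1740 CPM against 837 to 1230 CPM. In Sox10, Stmn3 and Igfbp2 the library labelled experiment 1 replicate 1 lay outside the range of the treated libraries of its own experiment, and so did experiment 2 replicate 1 for its own.

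**Figure D4:**
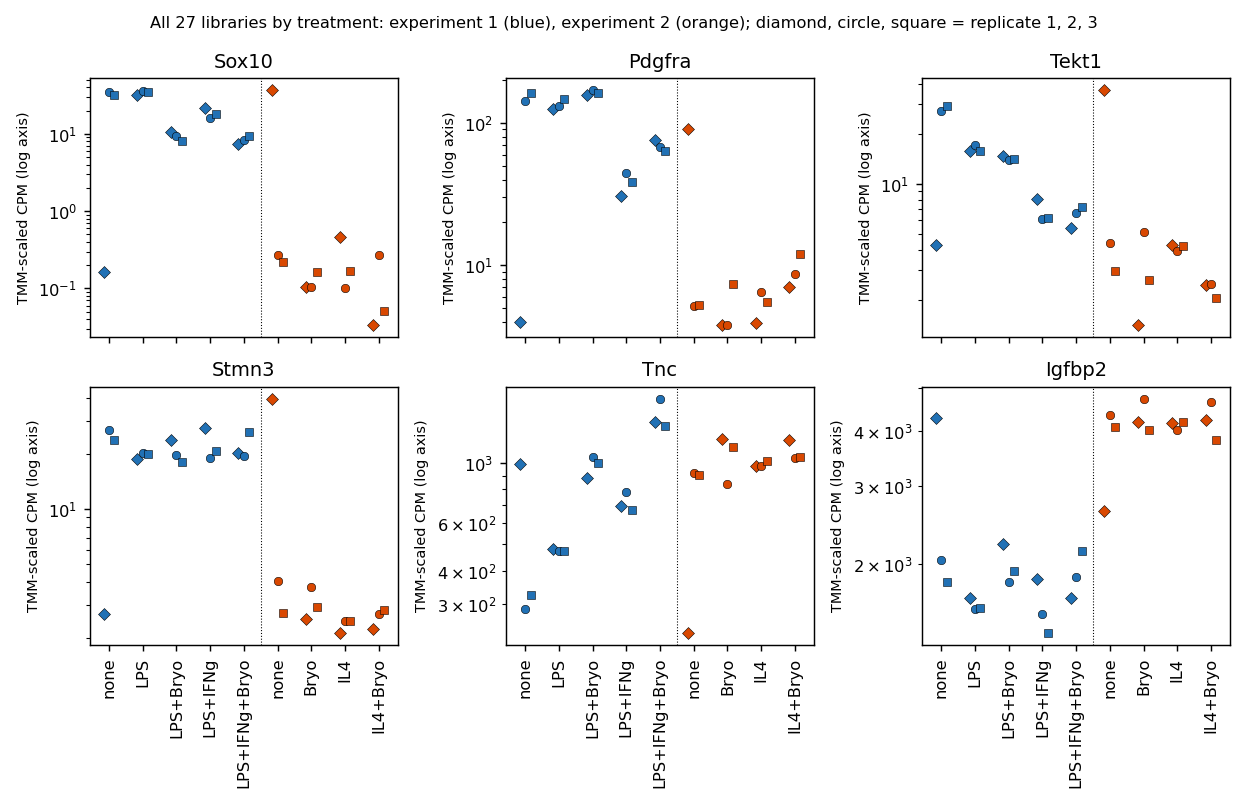
Level of 6 genes in all 27 libraries by treatment, as TMM-scaled CPM on log axes, experiment 1 in blue and experiment 2 in orange, with a diamond, circle and square for replicates 1, 2 and 3. The diamonds of both untreated groups lie with the other experiment for Sox10, Pdgfra, Stmn3 and Tekt1, and that of experiment 2 lies between the groups for Igfbp2.

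The library labelled experiment 2 replicate 1 also stood apart in relation to gene length. For 11451 protein-coding genes, its log2 ratio to the median of the other 5 libraries had a Spearman rho of -0.549 with the deposited gene length, across genes, which are not independent replicates. In the other libraries rho ran from -0.151 to 0.308. Genes of at most 2996 bases had a median log2 ratio of 0.32 in that library, and genes of at least 7145 bases had -0.44. Ribosomal protein genes, which are short, took 2.88% of its counts, against 1.72% to 1.96% in the other untreated libraries. Hipk2, a kinase named after its values were seen, had 4.22 CPM there, against 33.7 to 67.8 CPM in the other 5 libraries. The part of gene length in the differences of this library from others was not tested. Sox10 and Tekt1, of 3051 and 1622 bases, stood there at 36.7 and 36.6 CPM, above experiment 1 replicates 2 and 3, and Pdgfra, of 10024 bases, stood at 90.5 CPM against 142 and 162 CPM.

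**Figure D5:**
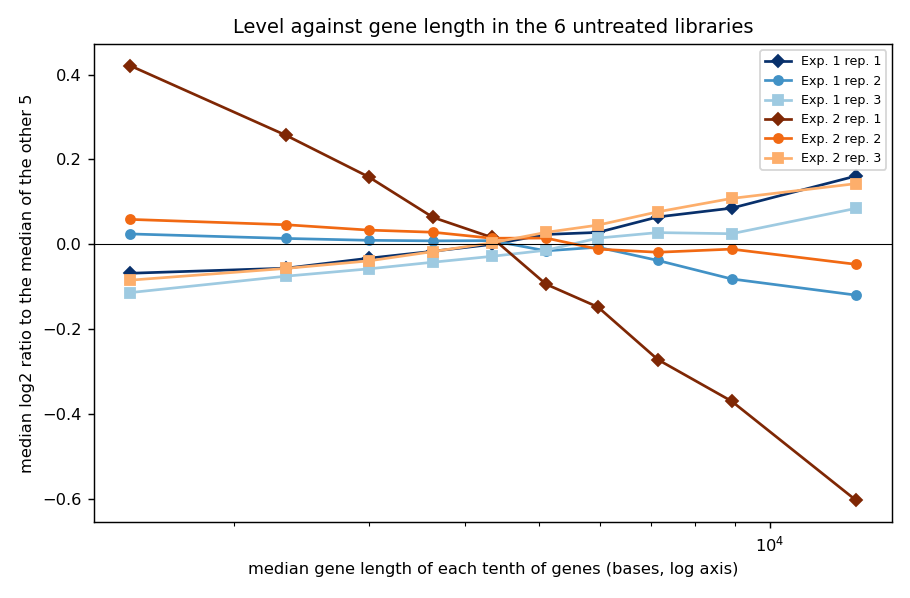
Median log2 ratio of each untreated library to the median of the other 5, for 11451 protein-coding genes in 10 equal bins ordered by deposited gene length (horizontal log axis, bases). Experiment 2 replicate 1 falls with length, from 0.42 in the shortest bin to -0.60 in the longest, and the other 5 stay between -0.12 and 0.16.

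Of the sex-linked and substrain genes, Xist, Eif2s3y and Nnt did not follow the same order. Xist, the X-inactivating RNA of female cells, had 49.9, 69 and 87.9 CPM in experiment 1 and 31.1, 30.1 and 43.9 CPM in experiment 2, with no overlap as labelled (-0.98 ± 0.44, adjusted p = 0.521 in edgeR). Its antisense partner Tsix had no more than 0.201 CPM, and these unstranded libraries cannot tell the strands apart. The Y-linked gene Eif2s3y lay between 15.3 and 18.1 CPM in all 6, and Xist was also detected in each of them. Another Y-linked gene, Ddx3y, differed by -0.03 as labelled and by 0.43 without both libraries labelled replicate 1 (adjusted p = 0.191 in edgeR). In that comparison edgeR called Ddx3y with only the 4 untreated libraries (adjusted p = 0.00683) and with no filter (adjusted p = 0.024). Nnt, a mitochondrial enzyme part of which is deleted in the C57BL/6J substrain, had at most 0.665 CPM in any untreated library and was not called in either comparison.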

How the data were processed

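The series held 27 libraries in 9 groups of 3. Groups and replicate numbers were taken from the sample titles. Unstranded polyA libraries were made from total RNA, per the labels' protocols, so overlapping and antisense genes cannot be told apart. The deposited table gave the authors' raw read counts for 54532 genes, for which the submitters' processing notes name mm10, fastp, STAR and featureCounts. Their versions are not given in the sources used here. It also gave the authors' FPKM values, which equal count over gene length and total up to a constant of 0.901 to 1.19 per library, used here only for levels between genes.

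Counts were tested with edgeR 4.0.16 (quasi-likelihood F test, filterByExpr, TMM factors, robust fit) in 1 fit over all groups, with Benjamini-Hochberg adjustment over all genes tested and a threshold of 0.05. The second comparison left out both untreated libraries labelled replicate 1. Alternatives were DESeq2 1.42.0, its size factors in edgeR, no filter, only untreated libraries, a replicate block and leaving out single libraries. R 4.3.3, Python 3.11.15, pandas 2.3.3, scipy 1.17.1 and matplotlib 3.10.9 were used. The fits were tested on simulated data. A difference is log2 of experiment 2 over experiment 1, ± its standard error, |log2 difference| divided by the square root of F. Promoters came from RefSeq (GRCm38.p6).

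Named genes were, per comparison, the 8 largest folds in each direction among called protein-coding genes of at least 5 CPM (where none was called, the 8 of smallest p), up to 6 genes of each of 29 lists and a fixed set of markers. Some of these genes are not reported here. Members, lists and the libraries left out were chosen with earlier results of these data known.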

Additional observations from a re-analysis of the deposited data

How the results depend on the processing

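As labelled, 0 genes were called under DESeq2, its size factors, no filter, only the 6 untreated libraries and the replicate block. Leaving out 1 library at a time gave 0 to 784 called genes, 0 to 263 higher and 0 to 641 lower in experiment 2, and leaving out both libraries labelled replicate 1 gave 3165, 1190 and 1975. The cause was not tested. Without those 2 libraries the other settings gave 3064 (no filter) to 4091 (only 4 libraries) called genes. Leaving out 1 more library, which leaves a lone sample assumed to vary like the other groups, gave 2096 to 2149 called genes, 695 to 739 of them higher. Same-numbered untreated libraries deviated from their group means in opposite directions (correlations -0.752, -0.719 and -0.351). Each group mean includes a library labelled replicate 1 that resembles the other experiment, and these signs follow from that. The correlations therefore cannot tell whether the numbers pair the libraries. The replicate block gave 0 called genes as labelled and 3134 without both libraries labelled replicate 1. With the block, Col1a1 changed sign as labelled (0.080).

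Log2 differences that changed sign as labelled when libraries were left out are given as ranges. They ranged from -0.17 to 0.19 for Gfap, -0.042 to 0.11 for Cx3cr1, -0.39 to 0.0051 for P2ry12, -0.13 to 0.30 for Tmem119, -0.13 to 0.47 for C1qa and -0.24 to 0.057 for Cspg4. For Ttr the range was -7.80 to 0.48, for Col1a1 -0.77 to 0.23, for Mki67 -0.19 to 0.54 and for Top2a -0.16 to 0.20. Il1b ranged from -1.17 to 0.28, Lcn2 from -0.028 to 0.81, Ddx3y from -0.25 to 0.43 and Nnt from -1.13 to 0.65. Without both libraries labelled replicate 1, Cx3cr1 (-0.0037) became 0.0013 with DESeq2 or its size factors and 0.0067 with no filter, and ranged from -0.073 to 0.074 with 1 more library left out. The ranges were -0.031 to 0.086 for Olig2, -1.08 to 0.12 for Ccl2 and -0.16 to 1.54 for Nnt. Without TMM factors the log2 ratios of the summed neuroblast and interneuron list and of the endothelial list changed sign, to -0.017 and -0.021. Genes of a few counts, such as Nnt, are limited by depth. Without both libraries labelled replicate 1, edgeR with only 4 libraries or with no filter also called Col1a1, Mki67, Xist and Ddx3y, and with only 4 libraries P2ry12 and Olig1. There Aqp4 lost its call with DESeq2 size factors (-0.49), and Aqp4 and Il1b lost theirs with single libraries left out.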
